A study of Mus musculus with 6 samples.

Results

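The dermal papilla (DP), the cluster of mesenchymal cells at the base of the hair follicle, was compared with dermal fibroblasts (DF), the matrix-producing cells of the dermis between follicles. Both populations were isolated by FACS from dorsal skin of CD1 females at postnatal day 16, which the submitters call early catagen, and each had 2 biological replicates. Every gene with at least 1 RPKM (reads scaled by transcript length and library size) in at least 2 of these 4 libraries was taken, which gave 14106 of the 24529 genes listed, and 4653 genes were at 0 in all 4 libraries. The series also holds 2 libraries of dermal sheath (DS), the cell layer wrapped around the follicle, which shared the estimate of spread and are otherwise given for orientation. The labels name no allele, transgene or agent for any group, and neither the sort markers nor any pooling of animals is stated in the sources used here.

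The papilla instructs the epithelium above it through secreted Wnt modulators, BMPs and FGFs, and it is the source of signals that start a new hair cycle after regression. In catagen the lower follicle shrinks while the papilla persists and is drawn upwards. Dermal fibroblasts lay down fibrillar collagen, elastic fibres and proteoglycans, and they recruit leukocytes through chemokines. The genes are described below as secreted factors, receptors, transporters, transcription factors and metabolic enzymes.

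Values below are RPKM divided by a median-ratio factor per library ("scaled RPKM"). One small RNA gene, Mir6236, held 77.1% and 74.6% of the summed RPKM of the DF libraries and 57% and 46.6% of the DP libraries. The factors were 0.632 and 0.794 for DF and 1.29 and 1.26 for DP. No read totals were used here. The depth relative to DF replicate 2, estimated from ratios of low values, was 0.71 for DF replicate 1 and 0.63 and 0.51 for the DP libraries. The ratio used was the commonest one, shared by 66 of 1278 genes searched for DF replicate 1. For DP replicates 1 and 2 it was shared by 29 of 1153 and 25 of 1097. At equal RPKM as deposited, low values in DP thus rest on fewer reads than low values in DF. After division by the factors, which were larger for DP, this order need not hold for scaled RPKM. Log2(scaled RPKM + 1) correlated across genes, which do not count as replicates, with Pearson's r = 0.945 between the DP libraries, 0.94 between the DF libraries and 0.724 to 0.755 between the populations.

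The labels were checked against markers. Of 30 dermal papilla markers 28 were higher in DP and 1, the proteoglycan gene Vcan, was lower at 108 and 112 scaled RPKM in DP and 244 and 207 in DF, with summed levels of 7338 and 8579 scaled RPKM in the DP libraries and 782 and 821 in DF. Of 20 fibroblast markers 16 were lower in DP and 1, the Wnt inhibitor gene Sfrp2, was higher, with sums of 1479 and 1523 in DP and 130661 and 91353 in DF. Of 8 tested smooth muscle and sheath markers 2 were higher and 1 lower, and Acta2, at 2.97 and 2.82 scaled RPKM in DP and 3.28 and 3.02 in DF, was at 902 and 984 in DS. Keratinocyte markers summed to 188 and 249 in DP and 237 and 163 in DF, and 2 of 21 (Epcam and Msx2) were higher in DP and 0 lower, with 3 and 0 at an unadjusted limma p under 0.05 in each direction. Leukocyte markers summed to 14.8 and 19.8 in DP and 88.8 and 106 in DF, with 9 of 12 tested lower in DP, 1 (Kit) higher and Cd207 and Cx3cr1 below 1 in every library. Melanocyte markers were lower for 6 of 9, with Dct at 0.321 and 0.261 scaled RPKM in DP and 8.11 and 13.1 in DF. The 2 higher ones were Ednrb, at 11.3 and 14.2 in DP and 4.22 and 4.88 in DF, and Kit. Kit was at 1.75 and 6.18 in DP and 0.267 and 0.685 in DF. In DS, Ednrb was at 1393 and 1545, far above its level in DP and DF. Endothelial markers summed to 78.98 and 87.1 in DP and 82.4 and 71.001 in DF, pericyte markers to 183 and 194 and 879.9 and 669, and Schwann cell markers to 308 and 333 and 1169 and 853. A single gene made up most of each of the last 2 DF sums. Ndufa4l2 was at 22.4 and 40.4 in DP and 789.5 and 588 in DF, and Pmp22 at 224 and 269 in DP and 1114 and 796 in DF. The pericyte marker Cspg4 went the other way, at 93.5 and 97.9 in DP and 2.70 and 4.39 in DF. Pericyte markers were higher for 1 and lower for 2 of 9, Schwann cell markers for 1 and 1 of 7, and proliferation markers for 2 and 1 of 11. Adipocyte and skeletal muscle markers, 4 and 3 of them tested, gave 1 higher and 1 lower calls. In bulk RNA, fewer cells of a type and less RNA per cell cannot be told apart, and the part of these cells in the differences below was not tested.

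Across the 14106 genes, 1387 were called higher in DP (9.83%) and 1910 lower (13.5%), where a called gene has a limma p, adjusted by Benjamini-Hochberg, under 0.05 and differs at least 2-fold on the log2 scale of values plus 1. An unadjusted p under 0.05 was reached by 6386 genes. The filter used RPKM before scaling, and some genes passed it through one population alone. As deposited these genes had to differ, but after division by the factors, which were larger for DP, they need not. There were 891 of these for DP, of which 359 were called higher, and 420 for DF, of which 397 were called lower. Differences over 16-fold were seen for 191 genes lower in DP and 79 higher. The scaling sets this balance. When RPKM were taken as deposited, 4644 genes were higher (32.9%) and 1012 lower (7.17%), and the median log2 difference over all genes was 0.74 instead of 0.02. That scaling shifts every gene towards DP, which by itself favours higher calls, and 1008 of the 1910 lower genes were also called lower as deposited. Of the genes named below, Vcan, Shmt2, Fstl1, Igf2, Notch2, Plod1, Slc12a4, Zeb1, Tgfb2 and Wnt5a were called lower here and not as deposited. Aldh18a1, Epcam, Fgf11, Igf2, Kit, Msx2, Nog, Nr4a2, Scd1, Slc16a10, Vcan, Wnt6 and Zic4 lost their call when a DF or DP library was left out. Named genes that then failed the filter had no test in that fit and are not counted for it. Leaving out DP replicate 1 or 2 gave 903 or 867 higher genes, and leaving out DF replicate 1 gave 1264 lower genes, each from fewer tested genes. With 2 libraries against 2 an exact two-sided permutation test cannot give a p below 0.333, so the adjusted p-values depend on limma's pooling of the spread over genes and over all 3 populations, and that spread may be partly technical.

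**Figure D1:**
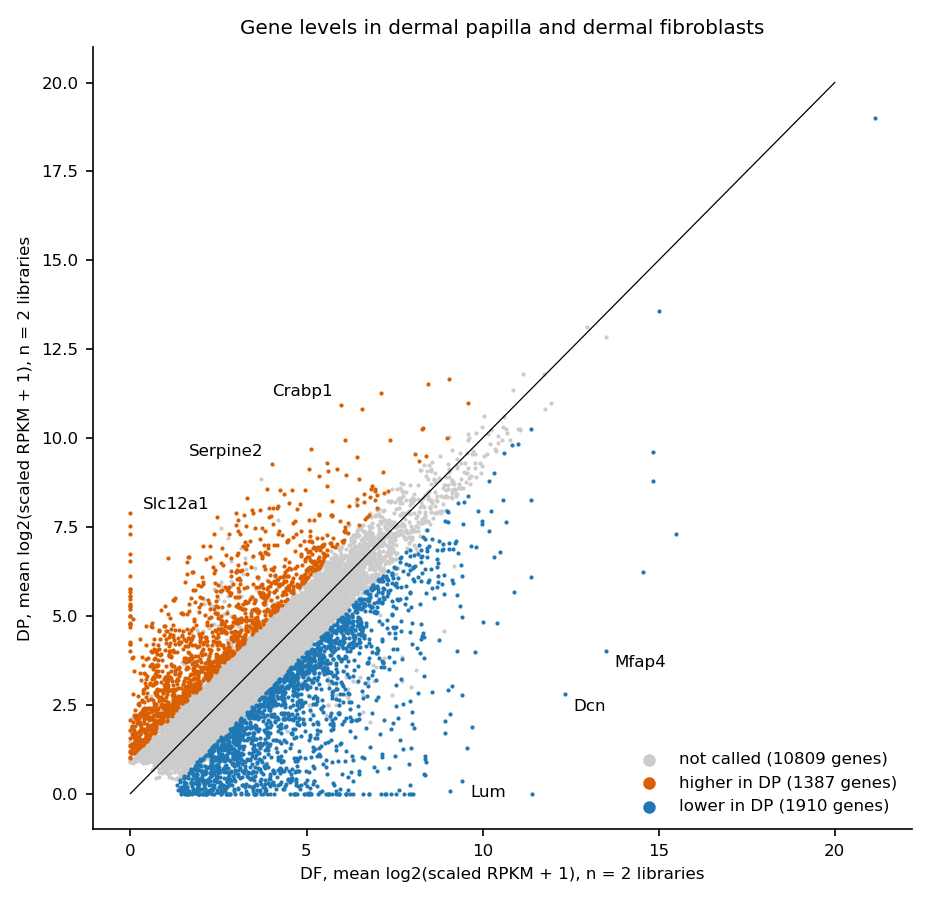
Mean level in DF (x axis) against mean level in DP (y axis) for the 14106 tested genes, both as log2(scaled RPKM + 1), n = 2 libraries per population. Orange points are the 1387 genes called higher in DP, blue points the 1910 called lower and grey points the rest. The labels name 6 genes, with Dcn, Mfap4 and Lum at the lower right and Crabp1, Serpine2 and Slc12a1 at the upper left. Many called points on either axis, at 0 in the other population, are small RNA genes. Of 354 small RNA genes tested, 37 were higher and 47 lower, close to the shares of all genes (9.83% and 13.5%).

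The 5 functional classes split unequally. Of 313 tested genes for secreted proteins, out of 489 listed, 72 were higher in DP (23%) and 142 lower (45.4%), both above the shares of all genes. Of 244 receptor genes out of 386, 60 were higher (24.6%) and 53 lower (21.7%). Transporter and channel genes, with 371 of 686 tested, were higher for 57 (15.4%) and lower for 73 (19.7%). Transcription factor genes leaned to DP, with 82 of 298 tested higher (27.5%) and 34 lower (11.4%), out of 480 listed. Metabolic genes leaned to DF under this scaling but to DP as deposited, with 40 of 454 higher (8.81%, close to the share of all genes) and 88 lower (19.4%), out of 553 listed. The median log2 difference was -0.63 for secreted, 0.09 for receptor, -0.08 for transporter, 0.35 for transcription factor and -0.18 for metabolic genes, beside 0.02 for all genes. As deposited, the higher and lower calls were 96 and 114, 99 and 38, 117 and 32, 157 and 18 and 136 and 51 in the same order. Without DP replicate 1 or 2, 36 or 37 receptor genes and 32 or 33 transporter genes were higher, and without DP replicate 2, 54 transcription factor genes. Without DF replicate 1, 94 secreted, 32 receptor, 43 transporter and 22 transcription factor genes were lower, and without DF replicate 2, 34 receptor genes. Members that passed the filter through one population alone are included, namely 27 and 39 secreted genes for DP and DF, 34 and 17 receptor genes, 42 and 13 transporter genes, 26 and 7 transcription factor genes, and 12 and 9 metabolic genes. The 3 other scalings that were run all move the median gene towards DP, so they can turn only lists that lean to DF. Of the 30 lists with more lower than higher calls, 21 had more higher calls as deposited, 25 when libraries were set to the same summed RPKM and 2 when the 100 highest genes were left out of that sum. How a scaling that moves genes towards DF would change the lists that lean to DP was not tested. Counts as deposited follow list counts below in brackets.

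**Figure D2:**
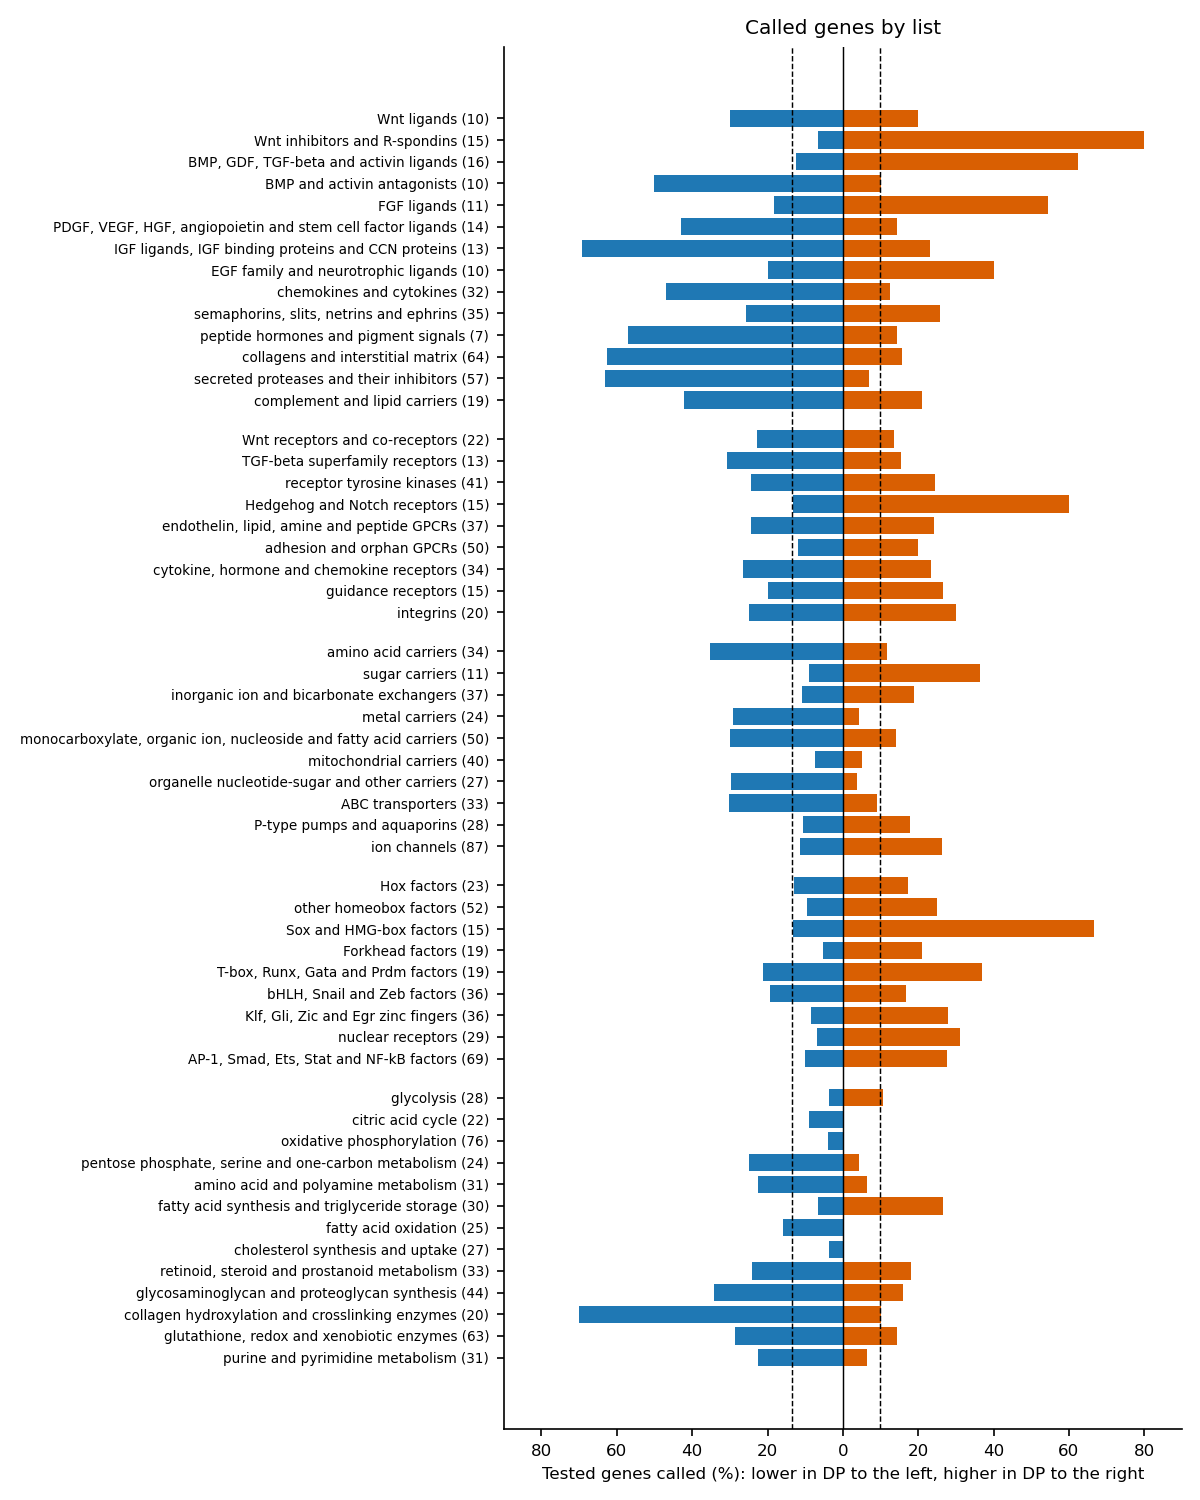
Share of tested genes in each of the 55 lists called higher in DP (orange, to the right) or lower (blue, to the left), in percent, grouped by class, with the number of tested genes beside each name. Vertical lines mark the shares over all genes, 9.83% higher and 13.5% lower. Wnt inhibitors and R-spondins and the Sox and HMG-box factors reach farthest right, and collagen-modifying enzymes, the IGF list and secreted proteases farthest left.

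Secreted modulators of Wnt signalling had the highest share of DP-high calls of the 55 lists. Wnt proteins bind Frizzled receptors with Lrp5 or Lrp6, and secreted inhibitors or R-spondins lower or raise that signal. Of 15 tested inhibitor and R-spondin genes, 12 were higher and 1 lower (12 and 1 as deposited), with a median log2 difference of 2.53. Dkk2, which blocks the Lrp co-receptors, was at 547 and 536 scaled RPKM in DP and 46.7 and 49.7 in DF, or 3.46 as log2 DP minus DF (SE 0.12, adjusted p = 5.5e-05). Sostdc1, an inhibitor of both Wnt and BMP signals, was at 252 and 324 in DP and 20.3 and 23.01 in DF (log2 DP minus DF 3.66 and adjusted p = 1.2e-04). Rspo4, an R-spondin that stabilises Frizzled receptors, was at 175 and 274 in DP and 11.1 and 18.1 in DF (log2 DP minus DF 3.85 and adjusted p = 5.0e-04). For all 3, both DP libraries exceeded both DF libraries. The single lower member was Dkk3, a Dickkopf relative without the same established co-receptor binding, at 2.98 and 3.296 in DP and 86.6 and 65.2 in DF (log2 DP minus DF -4.203), so Dkk2 and Dkk3 were called in opposite directions. Notum and Wif1, which act on the Wnt proteins themselves, were among the 15 genes with the largest differences towards DP, at 4.99 and 4.705 on the log2 scale. The ligands were low in comparison. Of 10 tested Wnt genes, Wnt10b (5.496 and 4.09 in DP and 0.504 and 0.849 in DF, log2 difference 1.79) and Wnt6 (1.47) were higher, and 3 were lower (4 and 0 as deposited), led by Wnt5a at 8.59 and 7.04 in DP and 30.7 and 19.1 in DF (-1.52).

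BMP and activin ligand genes were mostly DP-high, and their extracellular antagonists were more often DP-low, a split that holds for the ligands but not for the antagonists as deposited. Of 16 tested ligand genes of the TGF-beta superfamily, 10 were higher and 2 lower (11 and 1 as deposited). Gdf10, a secreted BMP family ligand, was at 106 and 145 scaled RPKM in DP and 3.57 and 4.0005 in DF, a log2 difference of 4.71. Bmp7 was at 161 and 196 scaled RPKM in DP and 13.2 and 11.4 in DF (log2 DP minus DF 3.75, with SE 0.17 and adjusted p = 1.0e-04), and Bmp2 at 41.1 and 65.9 in DP and 2.39 and 2.5003 in DF (3.95). Inhbb, which encodes an activin subunit, was at 70.6 and 58.9 in DP and 6.09 and 8.37 in DF (3.01). The TGF-beta genes split. Tgfb1 was at 45.7 and 63.4 in DP and 6.39 and 5.24 in DF (log2 DP minus DF 3.01), while Tgfb2 (-1.62) and Tgfb3 (-1.83) were lower. In Tgfb2 the DF libraries reached 185 and 185 scaled RPKM and the DP libraries 60.1 and 59.4. Of 10 tested antagonists, 1 was higher and 5 lower (2 and 2 as deposited). Grem1, a BMP-binding antagonist, was at 0.593 and 0.511 in DP and 16.8 and 22.7 in DF (log2 DP minus DF -3.73 and adjusted p = 1.7e-04), and the abundant Fstl1 at 410.0 and 469.7 in DP and 1259 and 1079 in DF (-1.41). The higher one was Nog, at 2.99 and 6.13 in DP and 0.566 and 0.796 in DF (1.67), which was higher still in DS at 19.8 and 21.7.

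FGF genes were called in both directions, more of them higher in DP. Of 11 tested, 6 were higher and 2 lower (6 and 2 as deposited). Fgf18, a factor tied to the resting phase of the hair cycle, was at 164 and 209.9 scaled RPKM in DP and 4.49 and 10.4 in DF (log2 DP minus DF 4.56, with SE 0.37 and adjusted p = 5.2e-04). Fgf7, which acts on epithelial Fgfr2b, was at 163 and 137 in DP and 31.6 and 35.3 in DF (2.13), and its relative Fgf10 at 34.6 and 31.5 in DP and 3.99 and 5.003 in DF (2.64). The DP libraries did not overlap with DF for any of these 3. The lower members, Fgf12 (-2.897) and Fgf14 (-3.51), encode intracellular FGF-homologous proteins that bind sodium channels rather than secreted ligands, and Fgf11 of the same kind was among the higher ones (1.05).

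Growth factor genes of other families were on both sides. Mdk, which encodes the heparin-binding growth factor midkine, was DP-high at 282 and 281 scaled RPKM in DP and 22.3 and 33.5 in DF (log2 DP minus DF 3.32 and adjusted p = 4.2e-04). Of the 14 tested ligands of the PDGF, VEGF, HGF, angiopoietin and stem cell factor list, 2 were higher and 6 lower (4 and 6 as deposited). Flt3l, a haematopoietic cytokine, was at 2.28 and 3.498 in DP and 149 and 435 in DF (log2 DP minus DF -6.06, with SE 0.73 and adjusted p = 0.0021), and Csf1, the macrophage growth factor, at 2.35 and 3.11 in DP and 65.2 and 43.7 in DF (-3.87). Gas6, the ligand of the Axl and Mertk receptors, was at 0.734 and 1.46 in DP and 47.7 and 35.2 in DF (-4.35), and the stem cell factor gene Kitl at 2.46 and 4.39 in DP and 13.96 and 27.1 in DF (-2.25). Of 10 EGF family and neurotrophic ligands 4 were higher and 2 lower (4 and 2 as deposited). Clcf1, a cytokine that signals through the ciliary neurotrophic factor receptor, was at 22.5 and 26.02 in DP and 2.39 and 2.46 in DF (2.88), and Nrg2, a neuregulin that binds ErbB receptors, at 24.2 and 18.2 in DP and 0.398 and 1.68 in DF (3.51).

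Genes of the insulin-like growth factor system moved in both directions with large differences. Of 13 tested, 3 were higher and 9 lower (3 and 6 as deposited), with a median log2 difference of -2.28. Igf1 was at 7.95 and 9.18 scaled RPKM in DP and 109 and 104 in DF (log2 DP minus DF -3.49 and adjusted p = 7.7e-05) and Igf2 at 24.6 and 6.73 in DP and 67.8 and 66.6 in DF (-2.28), so both ligands were DF-high. The binding proteins split. Igfbp3 was at 3126 and 3297 in DP and 575 and 483 in DF (2.61, adjusted p = 1.2e-04), which made up most of the list's summed level in DP, and Igfbp4 at 134 and 118 in DP and 14.8 and 18.98 in DF (2.84). Igfbp2 was at 0.762 and 0.764 in DP and 244 and 238 in DF (-7.1003, SE 0.13, adjusted p = 2.9e-05), and Igfbp5 at 14.8 and 24.4 in DP and 495 and 383 in DF (-4.45). In DS, Igfbp2 was at 381 and 338 and Igfbp3 at 21.3 and 20.1, so the order of these genes differed between DS and DP. Ccn5, a matricellular relative of connective tissue growth factor, was also lower (-5.55).

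Chemokine and cytokine genes were more often DF-high. Of 32 tested chemokines and cytokines, 4 were higher in DP and 15 lower (6 and 14 as deposited), and 11 passed the filter through DF alone. Ccl11, the eosinophil chemokine eotaxin, was at 2.25 and 2.32 scaled RPKM in DP and 516 and 469.6 in DF (log2 DP minus DF -7.23, with SE 0.16 and adjusted p = 3.2e-05), and the monocyte chemokines Ccl8 (-6.07), Ccl7 (-4.69) and Ccl2 (-3.46) were lower too. Cxcl12, the ligand of Cxcr4, was at 3.38 and 5.25 in DP and 80.3 and 69.6 in DF (-3.86), while the receptor gene Cxcr4 was higher, at 20.1 and 18.4 in DP and 2.39 and 2.204 in DF (2.62). Cxcl14 was an exception at 41.6 and 64.6 in DP and 4.596 and 5.65 in DF (3.12). The leukocyte marker genes C1qb, at 0 and 0 in DP and 10.7 and 9.99 in DF, and Csf1r, at 1.97 and 0.821 in DP and 16.001 and 10.7 in DF, moved with the DF-high chemokines, and their part in that difference was not tested. Peptide hormone and pigment signal genes had 1 of 7 higher and 4 lower (2 and 3 as deposited). The complement and lipid carrier list had 4 of 19 higher and 8 lower (6 and 8 as deposited). Apod, an apolipoprotein of the lipocalin family, was at 2718 and 3232 in DP and 351 and 345 in DF (3.09, adjusted p = 8.9e-05), whereas Rarres2, which encodes the chemoattractant chemerin, was at 19.5 and 11.1 in DP and 942 and 808 in DF (-5.79).

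Axon guidance ligands were called in both directions, also within classes of semaphorins. Of 35 tested semaphorin, slit, netrin and ephrin genes 9 were higher and 9 lower (13 and 7 as deposited). Sema5a, a membrane semaphorin with thrombospondin repeats, was at 491 and 481 scaled RPKM in DP and 41.2 and 39.4 in DF (log2 DP minus DF 3.56, with SE 0.12 and adjusted p = 5.5e-05), and Sema6d at 126 and 141 in DP and 19.8 and 21.9 in DF (2.62), while Sema6a of the same class was lower (-1.97). The secreted class 3 genes Sema3b (0.462 and 0.851 in DP and 188 and 136 in DF, -6.61) and Sema3c (1.14 and 0.7495 in DP and 72.5 and 84.9 in DF, -5.36) were lower and Sema3g of that class was higher (5.33 and 5.204 in DP and 0.733 and 1.105 in DF, 1.71). The netrin genes Ntn1 (-3.68) and Ntn4 (-3.63) were lower. Nrp1, the co-receptor of class 3 semaphorins, was lower as well, at 0.791 and 0.57996 in DP and 14.8 and 13.2 in DF (-3.15), and the netrin receptor genes Unc5b at 77.9 and 78.9 in DP and 15.02 and 11.3 in DF (2.501) and Unc5c (2.84) were higher. Of 15 tested guidance receptor genes 4 were higher and 3 lower (8 and 2 as deposited).

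Among the genes the naming rule takes, which leaves small RNA genes out, the largest differences towards DF were in matrix genes. Of 64 tested collagens and interstitial matrix genes, 10 were higher in DP and 40 lower (13 and 33 as deposited), with a median log2 difference of -1.95. Dcn, the collagen-binding proteoglycan decorin, was at 4.68 and 7.43 scaled RPKM in DP and 5659 and 4696 in DF (log2 DP minus DF -9.54, with SE 0.22 and adjusted p = 3.2e-05), and Mfap4, a microfibril-associated glycoprotein, at 13.6 and 17.02 in DP and 13767 and 9710.5 in DF (-9.48). Lum was at 0.394 and 0.185 in DP and 789.9 and 584 in DF (-9.05). For these 3, both DP libraries were far below both DF libraries. Of the higher matrix genes, Col23a1 and Col13a1, both transmembrane collagens, were at 117 and 122 in DP and 4.89 and 5.34 in DF (4.302, adjusted p = 1.0e-04) and at 48.996 and 62.7 in DP and 5.41 and 6.43 in DF (3.03). Tnc, the adhesion-modulating glycoprotein tenascin-C, was at 14.5 and 22.1 in DP and 1.06 and 1.27 in DF (3.13), and Fbn2 (1.26) was higher where its relative Fbn1 (-4.07) was lower. Prg4, the lubricating proteoglycan lubricin, was at 99.6 and 101 in DP and 1.45 and 3.07 in DF (5.005), and Lcn2, a siderophore-binding lipocalin, at 93.3 and 108 in DP and 1.91 and 2.34 in DF (5.02), both outside the lists and among the 15 largest differences towards DP.

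Secreted proteases and their inhibitors leaned to DF as well. Of 57 tested, 4 were higher and 36 lower (10 and 29 as deposited). The procollagen processing genes Pcolce2 (0.328 and 0.523 in DP and 359 and 297 in DF, -7.85) and Adamts2 (13.3 and 12.9 in DP and 362 and 282 in DF, -4.51) were lower, as was Htra1, a secreted serine protease, at 5.35 and 4.92 in DP and 297 and 200.2 in DF (-5.32). Mmp27 was at 0.08903 and 0.0408 in DP and 199 and 196 in DF (log2 DP minus DF -7.54 and adjusted p = 3.0e-05). Serpine2, an inhibitor of serine proteases and a papilla marker, was DP-high at 581 and 653 in DP and 11.7 and 19.5 in DF (5.26), as were Adamts7, a metalloprotease that cleaves cartilage oligomeric matrix protein, at 51.3 and 64.1 in DP and 2.92 and 2.69 in DF (3.94), and the matrix metalloproteinase gene Mmp28 (2.79).

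**Figure D3:**
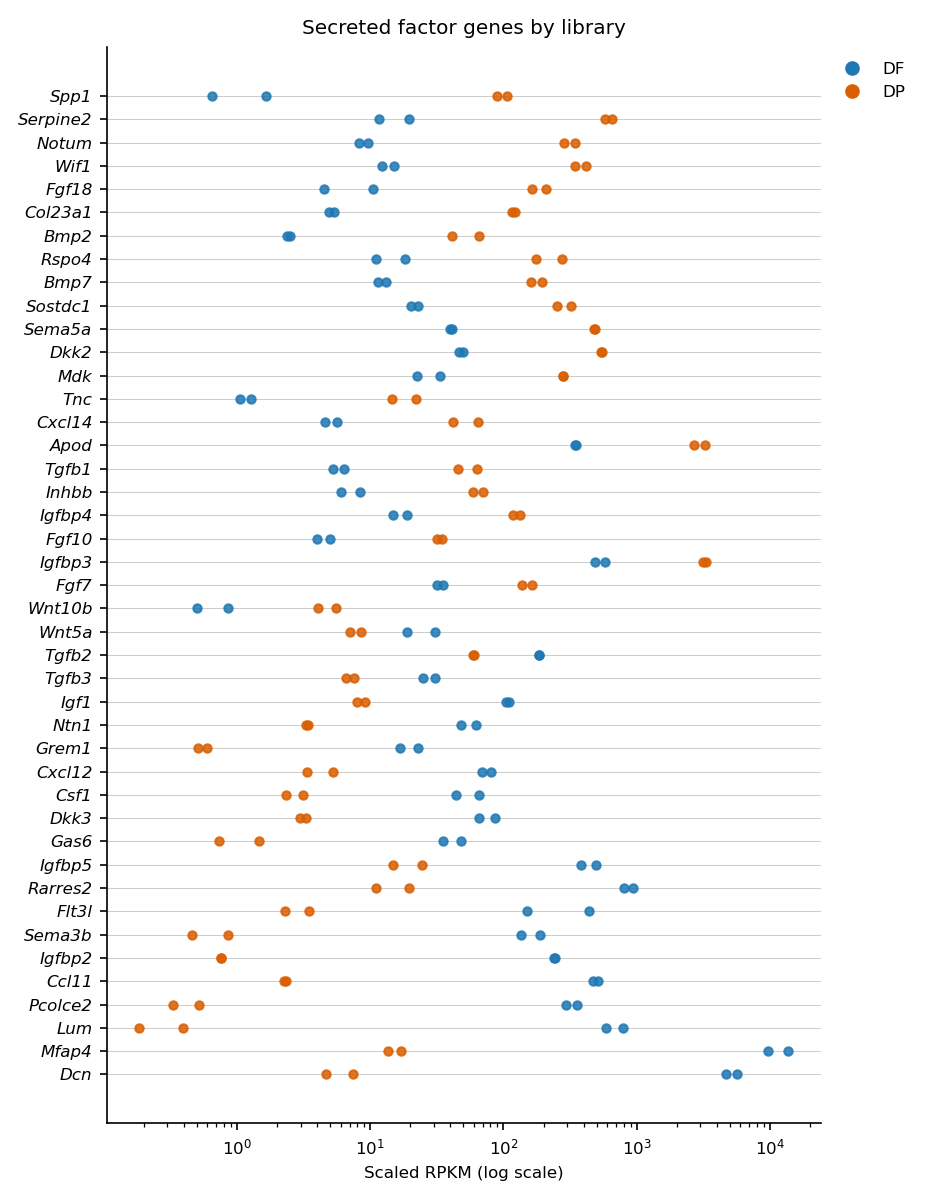
Scaled RPKM (x axis, log scale) of secreted factor genes in each of the 2 DF (blue) and 2 DP (orange) libraries, 1 point per library, with values below 0.1 drawn at 0.1. Genes are ordered from the largest log2 difference towards DP at the top to the largest towards DF at the bottom. Only genes whose DP and DF libraries do not overlap were drawn.

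Lgr6, an R-spondin receptor, was at 69.996 and 78.9 scaled RPKM in DP and 1.93 and 3.001 in DF (log2 DP minus DF 4.46, with SE 0.23 and adjusted p = 1.4e-04), and its relative Lgr5 went the other way, at 2.697 and 2.199 in DP and 49.1 and 29.7 in DF (-3.51, adjusted p = 5.9e-04). In DS, Lgr6 was at 2.64 and 3.62, and the difference of DP from DS had a log2 value of 4.198 (adjusted p = 1.6e-04). Of 22 tested Wnt receptors and co-receptors 3 were higher and 5 lower (10 and 3 as deposited). Bambi, a decoy receptor for TGF-beta and BMP, was at 13.1 and 16.7 in DP and 1.903 and 1.16 in DF (2.66), while Tgfbr3, the co-receptor betaglycan, was at 23.1 and 21.003 in DP and 202 and 162 in DF (-2.98). Of 13 receptors of that superfamily 2 were higher and 4 lower (5 and 3 as deposited).

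Hedgehog and Notch receptor genes were called higher in DP more often than lower. Hedgehog binds its receptor with the co-receptors Gas1, Boc and Cdon, which releases Smo. Gas1 was at 113 and 139 scaled RPKM in DP and 33.1 and 22.7 in DF (log2 DP minus DF 2.15 and adjusted p = 0.0015) and Boc at 49.6 and 47.7 in DP and 12.5 and 11.5 in DF (1.94). Cdon was at 0.359 and 0.1805 in DP and 35.9 and 35.7 in DF (-4.86), so co-receptors of the same ligand were called in opposite directions. Of 15 tested hedgehog and Notch receptors and Notch ligands, 9 were higher and 2 lower (9 and 1 as deposited), the latter being Cdon and Notch2 (-1.72).

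Receptor tyrosine kinase genes were called in both directions, with 10 of 41 higher and 10 lower (17 and 7 as deposited). Fgfr1, the main FGF receptor of mesenchyme, was at 263 and 274 scaled RPKM in DP and 66.996 and 77.9 in DF (log2 DP minus DF 1.88 and adjusted p = 3.1e-04), and Fgfr3 was higher too (2.92). Fgfr4 was at 1.45 and 1.96 in DP and 49.96 and 40.4 in DF (-4.09). The FGF receptor family therefore had members on both sides. Flt1, a receptor of VEGF that is also an endothelial marker, was at 16.7 and 14.8 in DP and 0.454 and 0.722 in DF (3.4005). Of 11 tested endothelial markers 2 were higher and 1 lower (4 and 1 as deposited), with Cdh5 at 2.297 and 0.9299 in DP and 1.21 and 0.407 in DF and Pecam1 at 2.69 and 1.13 in DP and 0.991 and 0.5001 in DF, neither called, and the part of endothelial cells was not tested. Ntrk2, the receptor of brain-derived neurotrophic factor, was at 42.7 and 49.03 in DP and 11.7 and 12.3 in DF (1.85), and Ntrk3, the receptor of neurotrophin-3, at 4.48 and 5.37 in DP and 56.5 and 73.3 in DF (-3.47). Both were far higher in DS, at 209 and 193 and 939 and 761.

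G protein-coupled receptors for vasoactive and lipid ligands separated the populations in both directions, 9 of 37 higher and 9 lower (13 and 8 as deposited). Avpr1a, a vasopressin receptor coupled to calcium release, was at 193 and 223 scaled RPKM in DP and 6.76 and 7.96 in DF (log2 DP minus DF 4.65, with SE 0.18 and adjusted p = 7.0e-05). The prostacyclin receptor gene Ptgir was at 23.8 and 30.4 in DP and 0.608 and 0.476 in DF (4.18), the prostaglandin E receptor gene Ptger3 at 46.2 and 62.8 in DP and 6.63 and 8.05 in DF (2.72) and Vipr2, a receptor of vasoactive intestinal peptide, at 18.02 and 24.4 in DP and 1.21 and 1.43 in DF (3.24). No DP library overlapped a DF library for these 4. Lower in DP were Adra1a, an alpha-1 adrenergic receptor, at 0.0619 and 0.127 in DP and 17.3 and 15.6 in DF (-3.998), the angiotensin receptor gene Agtr1a at 9.51 and 5.703 in DP and 68.8 and 58.7 in DF (-2.94) and Lpar1, a lysophosphatidic acid receptor, at 17.999 and 20.4 in DP and 157 and 123.3 in DF (-2.799). Enpp2, the enzyme autotaxin that makes lysophosphatidic acid, was DP-high at 919 and 1045 in DP and 60.7 and 74.02 in DF (3.85, adjusted p = 7.5e-05), opposite to that receptor. Among adhesion and orphan receptors 10 of 50 were higher and 6 lower (15 and 5 as deposited), with Adgrd1 at 0.327 and 0.2396 in DP and 92.03 and 68.1 in DF (-5.97).

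Cytokine and hormone receptors included some of the most abundant DP-high receptor genes. Prlr, the prolactin receptor, was at 370.0 and 378 scaled RPKM in DP and 17.2 and 18.9 in DF (log2 DP minus DF 4.301, with SE 0.16 and adjusted p = 6.6e-05), and at 0.153 and 0.413 in DS. Cntfr, the receptor chain for ciliary neurotrophic factor and Clcf1, was at 408 and 332 in DP and 38.2 and 23.3 in DF (3.58). Tnfrsf21, a death-domain receptor, was at 141 and 176 in DP and 5.48 and 6.34 in DF (4.53), and the leptin receptor gene Lepr at 148 and 188 in DP and 14.4 and 21.7 in DF (3.17). For all 4 receptors both DP libraries exceeded both DF libraries. Ghr, the growth hormone receptor of the same family as Prlr, was at 38.3 and 26.5 in DP and 166 and 178 in DF (-2.39), and Ackr1, an atypical chemokine receptor, at 1.48 and 1.94 in DP and 62.5 and 61.8 in DF (-4.55). Of the 34 tested, 8 were higher and 9 lower (15 and 5 as deposited). Among integrins, 6 of 20 were higher and 5 lower (8 and 4 as deposited), with Itga1, a collagen and laminin receptor chain, at 59.9 and 44.4 in DP and 5.65 and 5.64 in DF (2.98). Itgbl1, which the integrin list picked up by its symbol but which is a secreted relative and not an integrin chain, was at 0.538 and 0.367 in DP and 353 and 295 in DF (-7.803).

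Among ion transporter genes Slc12a1, the sodium-potassium-chloride cotransporter known from the thick ascending limb of the kidney, was at 231 and 206 scaled RPKM in DP and 4.69 and 4.39 in DF (log2 DP minus DF 5.31, with SE 0.16 and adjusted p = 5.0e-05). Only Spp1 differed more towards DP among the 15 genes named for the largest differences, and Slc12a1 was at 0.01999 and 0.0329 in DS. The widely expressed relative Slc12a2 was at 147 and 137 in DP and 11.7 and 11.9 in DF (3.48, adjusted p = 7.5e-05), and the anion exchanger and channel gene Slc26a7 at 55.3 and 82.5 in DP and 1.98 and 4.64 in DF (4.06). Slc12a4, a potassium-chloride cotransporter that moves ions outwards, was at 11.02 and 13.5 in DP and 39.8 and 34.7 in DF (-1.53), while Slc12a7 of the same kind was higher (6.53 and 6.41 in DP and 0.587 and 1.67 in DF, 1.86). Of 37 tested ion and bicarbonate exchangers 7 were higher and 4 lower (18 and 1 as deposited). One of those lower, Slc9a3r1, matched by symbol and encodes a scaffold protein.

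Among other carriers Slc6a6, the taurine carrier, was at 288 and 232 scaled RPKM in DP and 15.5 and 18.4 in DF (log2 DP minus DF 3.86 and adjusted p = 7.5e-05), below its level in DS of 1004 and 1034. The myo-inositol carriers Slc5a3 (21.9 and 17.8 in DP and 2.23 and 2.12 in DF, 2.71) and Slc2a13 (70.7 and 51.03 in DP and 13.3 and 16.5 in DF, 1.95) were higher too. Slc2a1, the glucose carrier, was at 10.3 and 11.8 in DP and 3.04 and 2.12 in DF (1.76), and 4 of 11 tested sugar carriers were higher and 1 lower (5 and 0 as deposited). The lactate carriers Slc16a1 (0.393 and 0.642 in DP and 13.01 and 9.13 in DF, -2.98) and Slc16a7 (-2.72) were lower. Slco2b1, an organic anion carrier, was at 0.349 and 0.105 in DP and 57.5 and 48.8 in DF (-5.47). Of 50 carriers of monocarboxylates, organic ions, nucleosides and fatty acids 7 were higher and 15 lower (13 and 8 as deposited).

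Amino acid and metal carriers were lower more often than higher, an order that turned as deposited. Of 34 tested amino acid carriers 4 were higher and 12 lower (8 and 7 as deposited). Slc1a4, a carrier of serine and alanine, was at 1.47 and 1.41 scaled RPKM in DP and 11.2 and 9.15 in DF (log2 DP minus DF -2.19), and Slc7a1, a carrier of arginine and lysine, at 1.43 and 1.76 in DP and 13.8 and 9.46 in DF (-2.26). Metal carriers were higher for 1 of 24 and lower for 7 (6 and 3 as deposited). Slc39a13, a zinc carrier whose loss disturbs connective tissue, was at 21.4 and 24.5 in DP and 106 and 84.4 in DF (-1.9997). Mitochondrial carriers were called for 2 higher and 3 lower of 40 (12 and 0 as deposited), and their most abundant member Slc25a3, the phosphate carrier, was at 107 and 109 in DP and 137 and 105 in DF and was not called (-0.16, adjusted p = 0.47).

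Among ion channel genes 23 of 87 tested were higher and 10 lower (33 and 8 as deposited), and 14 of those tested passed the filter through DP alone. Scn3a, a voltage-gated sodium channel, was at 58.7 and 63.3 scaled RPKM in DP and 1.39 and 2.64 in DF (log2 DP minus DF 4.39, with SE 0.57 and adjusted p = 0.0026). Trpc4, a calcium-permeable cation channel, was at 35.8 and 33.3 in DP and 0.3397 and 1.53 in DF (4.27), and Cacna1c, the pore of the L-type calcium channel, at 93.8 and 78.04 in DP and 5.87 and 8.94 in DF (3.39). Kcnn3, a calcium-activated potassium channel, was at 14.5 and 21.4 in DP and 0.575 and 1.62 in DF (3.198). Each of the 4 was lower in both DF libraries than in either DP library. Of 28 ion pumps and aquaporins 5 were higher and 3 lower (8 and 2 as deposited), and of 27 organelle and nucleotide-sugar carriers 1 and 8 (5 and 0 as deposited). Atp1b1, a beta subunit of the sodium pump, was at 6.07 and 6.06 in DP and 0.928 and 0.345 in DF (2.13, adjusted p = 0.0033). Among ABC transporters 3 of 33 were higher and 10 lower (9 and 3 as deposited), with Abcc4, an exporter of cyclic nucleotides and prostaglandins, at 3.29 and 2.56 in DP and 43.1 and 35.6 in DF (-3.36).

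All 3 Runx genes, which encode DNA-binding partners of Cbfb in skeletal, blood and follicle development, were higher in DP. Runx3 was at 72.02 and 71.9 scaled RPKM in DP and 1.84 and 2.298 in DF (log2 DP minus DF 4.58, with SE 0.15 and adjusted p = 5.5e-05). Runx2, known for its role in bone, was at 59.3 and 60.8 in DP and 3.05 and 5.79 in DF (3.54, adjusted p = 3.6e-04), and Runx1 at 75.4 and 78.7 in DP and 8.36 and 7.59 in DF (3.12, adjusted p = 8.0e-05). Prdm1, a zinc finger repressor and papilla marker of the same list, was at 220.0 and 255 in DP and 5.65 and 8.45 in DF (4.91), and of 19 tested T-box, Runx, Gata and Prdm genes 7 were higher and 4 lower (11 and 2 as deposited). The Runx genes were higher in both DP libraries than in either DF library, and Runx1 and Runx2 were higher still in DS, at 117 and 129.6 and 153 and 175. Spp1, the osteopontin gene and a textbook Runx2 target in bone, had the largest difference towards DP of the genes the naming rule takes, at 89.6 and 107 in DP and 0.649 and 1.65 in DF (5.57, adjusted p = 2.3e-04), and was at 0.745 and 1.91 in DS.

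The promoter windows of these 4 genes are shown because each gene was higher in DP than in DF and because each window holds the Runx letters AACCACA. In DS the genes did not move together, as Runx1 and Runx2 were above their DP levels there and Spp1 far below its own. The windows, 250 bases before to 50 after an annotated start, are RefSeq sequence on build GRCm38.p6, chr5:104434861-104435160 (plus strand), chr16:92826025-92826324 (minus), chr17:44814578-44814877 (minus) and chr4:135120395-135120694 (plus), printed 5′ to 3′ in lower case with AACCACA in capitals. All matches in these windows lie on the printed strand.
Spp1: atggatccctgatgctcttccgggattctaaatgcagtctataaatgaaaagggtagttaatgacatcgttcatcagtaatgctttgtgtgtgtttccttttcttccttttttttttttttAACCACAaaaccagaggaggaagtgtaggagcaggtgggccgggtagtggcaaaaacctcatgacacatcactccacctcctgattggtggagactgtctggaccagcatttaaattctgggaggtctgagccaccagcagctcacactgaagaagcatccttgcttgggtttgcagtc
Runx1: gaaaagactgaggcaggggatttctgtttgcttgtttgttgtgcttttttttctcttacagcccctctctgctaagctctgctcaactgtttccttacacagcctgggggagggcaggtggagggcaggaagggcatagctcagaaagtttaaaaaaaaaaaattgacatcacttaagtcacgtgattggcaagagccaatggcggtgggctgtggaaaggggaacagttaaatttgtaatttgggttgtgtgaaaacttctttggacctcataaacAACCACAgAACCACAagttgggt
Runx2: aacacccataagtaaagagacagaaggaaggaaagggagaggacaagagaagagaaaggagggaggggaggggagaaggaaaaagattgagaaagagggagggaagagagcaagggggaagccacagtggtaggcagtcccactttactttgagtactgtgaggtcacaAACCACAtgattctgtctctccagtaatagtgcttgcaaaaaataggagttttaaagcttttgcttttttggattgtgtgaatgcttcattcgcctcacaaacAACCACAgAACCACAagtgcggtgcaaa
Runx3: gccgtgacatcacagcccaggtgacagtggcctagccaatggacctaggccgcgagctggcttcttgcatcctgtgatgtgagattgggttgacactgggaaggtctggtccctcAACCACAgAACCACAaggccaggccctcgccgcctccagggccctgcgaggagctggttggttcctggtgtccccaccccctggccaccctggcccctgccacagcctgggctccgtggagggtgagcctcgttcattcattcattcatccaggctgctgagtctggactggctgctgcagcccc
In each Runx gene's window a pair of copies stood 1 base apart, as AACCACANAACCACA, at 27, 22 and -135 bases from the start in Runx1, Runx2 and Runx3, counted from the start site at 0. That pair is in 5 of all 32851 windows when both strands are searched, or 0.0152%, these 3 included. Spp1, Runx1 and Runx3 each have 2 windows, of which 1 held the letters, and Runx2 has 1 window. Single copies on either strand were in 4.02% of the windows of DP-high genes, in 4.03% of those of DP-low genes, in 3.61% of those of all tested genes and in 5.27% of all windows. Other motifs were searched on both strands, with shares given for DP-high, DP-low, tested and all windows in that order. The Lef and Tcf letters CTTTGAA or CTTTGAT were in 6.53%, 6.16%, 6.18% and 8.65%. The AP-2 letters GCCNNNGGC were in 25.2%, 25.2%, 24.2% and 16.6%. The Gli letters TGGGTGGTC were in 0.0718%, 0.318%, 0.216% and 0.253%, and the AP-1 letters TGACTCA in 2.73%, 5.57%, 3.97% and 5.2%. A match is only a description of letters, and the windows shown were chosen after their letters were seen. Windows were found for 10943 of the 14106 tested genes.

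Sox and HMG-box genes leaned to DP. Of 15 tested Sox and HMG-box genes 10 were higher and 2 lower (10 and 1 as deposited). Tcf7, which binds the same DNA letters as Lef1, was at 74.5 and 89.8 scaled RPKM in DP and 17.2 and 14.8 in DF (log2 DP minus DF 2.29 and adjusted p = 4.2e-04), and Sox4 at 115 and 103 in DP and 7.37 and 7.38 in DF (3.71). Sox18, a factor of vessels and of the papilla, was at 15.2 and 15.6 in DP and 0.849 and 0.555 in DF (3.27). Tfap2c and Tfap2a, AP-2 factors of ectoderm and neural crest, were at 218 and 236 in DP and 6.23 and 11.1 in DF (4.604, adjusted p = 2.1e-04) and at 246 and 224 in DP and 9.73 and 10.6 in DF (4.399). Both are also keratinocyte genes, and of the keratinocyte markers Krt14, at 11.7 and 21.9 in DP and 9.601 and 8.802 in DF, and Trp63, at 4.04 and 6.77 in DP and 4.47 and 4.02 in DF, were not called, while Epcam, at 1.91 and 1.69 in DP and 0.398 and 0.354 in DF, and Msx2, at 15.9 and 20.1 in DP and 7.89 and 4.32 in DF, were higher. The part of keratinocytes in the AP-2 values was not tested. The Ets genes Etv1 (95.2 and 113 in DP and 5.24 and 5.78 in DF, 4.01) and Etv5 (3.46), which FGF signalling is known to induce, were higher. Irf8, a factor known from myeloid cells, was at 17.4 and 21.4 in DP and 0.364 and 1.36 in DF (3.4998). The leukocyte gene Ptprc was at 0.1201 and 1.11 in DP and 0.453 and 0.754 in DF, under the filter. Cd68 was at 4.83 and 5.74 in DP and 6.48 and 11.2 in DF and not called. Of 12 tested leukocyte markers 9 were lower in DP and 1 higher, and the part of leukocytes in the Irf8 values was not tested. Of the 69 tested AP-1, Smad, Ets, Stat and NF-kB genes, 19 were higher and 7 lower (37 and 3 as deposited).

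Nuclear receptors and zinc finger factors also leaned to DP. Nuclear receptors were higher for 9 of 29 and lower for 2 (17 and 2 as deposited). Nr4a3 was at 57.9 and 54.8 scaled RPKM in DP and 3.896 and 2.29 in DF (log2 DP minus DF 3.84 and adjusted p = 2.3e-04) and Nr4a2 at 132 and 149 in DP and 31.6 and 14.1 in DF (2.67). These are also induced by cell dissociation, whose list had 7 of 30 higher and 1 lower (19 and 0 as deposited), with summed levels of 3789 and 4237 in DP and 3672 and 3260.5 in DF. Their part in these differences was not tested, and Fos, at 174 and 183 in DP and 207 and 167 in DF, was not called. Vdr, the vitamin D receptor required for hair cycling, was at 31.6 and 33.5 in DP and 2.96 and 6.003 in DF (2.67), and Nr1h3, the sterol sensor LXR-alpha, at 25.01 and 31.5 in DP and 1.98 and 3.13 in DF (3.05). Esr1, the oestrogen receptor, was at 4.36 and 4.01 in DP and 44.9 and 37.7 in DF (-3.02, adjusted p = 2.2e-04), and Rarb, a retinoic acid receptor, at 0.363 and 1.84 in DP and 16.7 and 19.5 in DF (-3.27). Among zinc fingers 10 of 36 were higher and 3 lower (23 and 3 as deposited). Glis3 was at 41.9 and 47.3 in DP and 2.27 and 4.18 in DF (3.47) and Zic4 at 129 and 147 in DP and 20.1 and 42.7 in DF (2.19).

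The factor genes lower in DP were fewer. Osr2, an odd-skipped zinc finger factor of connective tissue, was at 1.48 and 0.375 scaled RPKM in DP and 336 and 334 in DF (log2 DP minus DF -7.51, with SE 0.29 and adjusted p = 6.7e-05) and at 26.8 and 31.2 in DS, and its relative Osr1 at 0.592 and 0.332 in DP and 73.2 and 55.2 in DF (-5.47). Of the nuclear factor I genes, Nfib was at 2.801 and 2.24 in DP and 56.1 and 50.9 in DF (-3.96), Nfix at 96.6 and 143 in DP and 619.8 and 534 in DF (-2.28) and Nfia at 36.1 and 53.8 in DP and 252 and 202 in DF (-2.33), and each was called lower. Twist2 (4.32 and 6.95 in DP and 56.6 and 47.8 in DF, -3.03) and Zeb1 (55.6 and 33.5 in DP and 134 and 263 in DF, -2.09), factors of mesenchymal identity, were lower, and Zeb2, at 228 and 227 in DP and 296 and 363 in DF, was not called (-0.53, adjusted p = 0.035). Of 36 bHLH, Snail and Zeb genes 6 were higher and 7 lower (19 and 3 as deposited). Of 23 tested Hox genes 4 were higher and 3 lower (11 and 1 as deposited), and the most abundant, Hoxc6, was at 38.5 and 40.1 in DP and 28.2 and 32.7 in DF and not called. Of 52 other homeobox genes 13 were higher and 5 lower (24 and 2 as deposited), among them Tshz2 (58.4 and 51.4 in DP and 5.59 and 5.33 in DF, 3.11) and Alx4 (32.998 and 43.2 in DP and 5.02 and 3.81 in DF, 2.85) on the DP side and Irx5 (-2.39) on the DF side. Forkhead genes were called for 4 higher and 1 lower of 19 (5 and 1 as deposited).

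**Figure D4:**
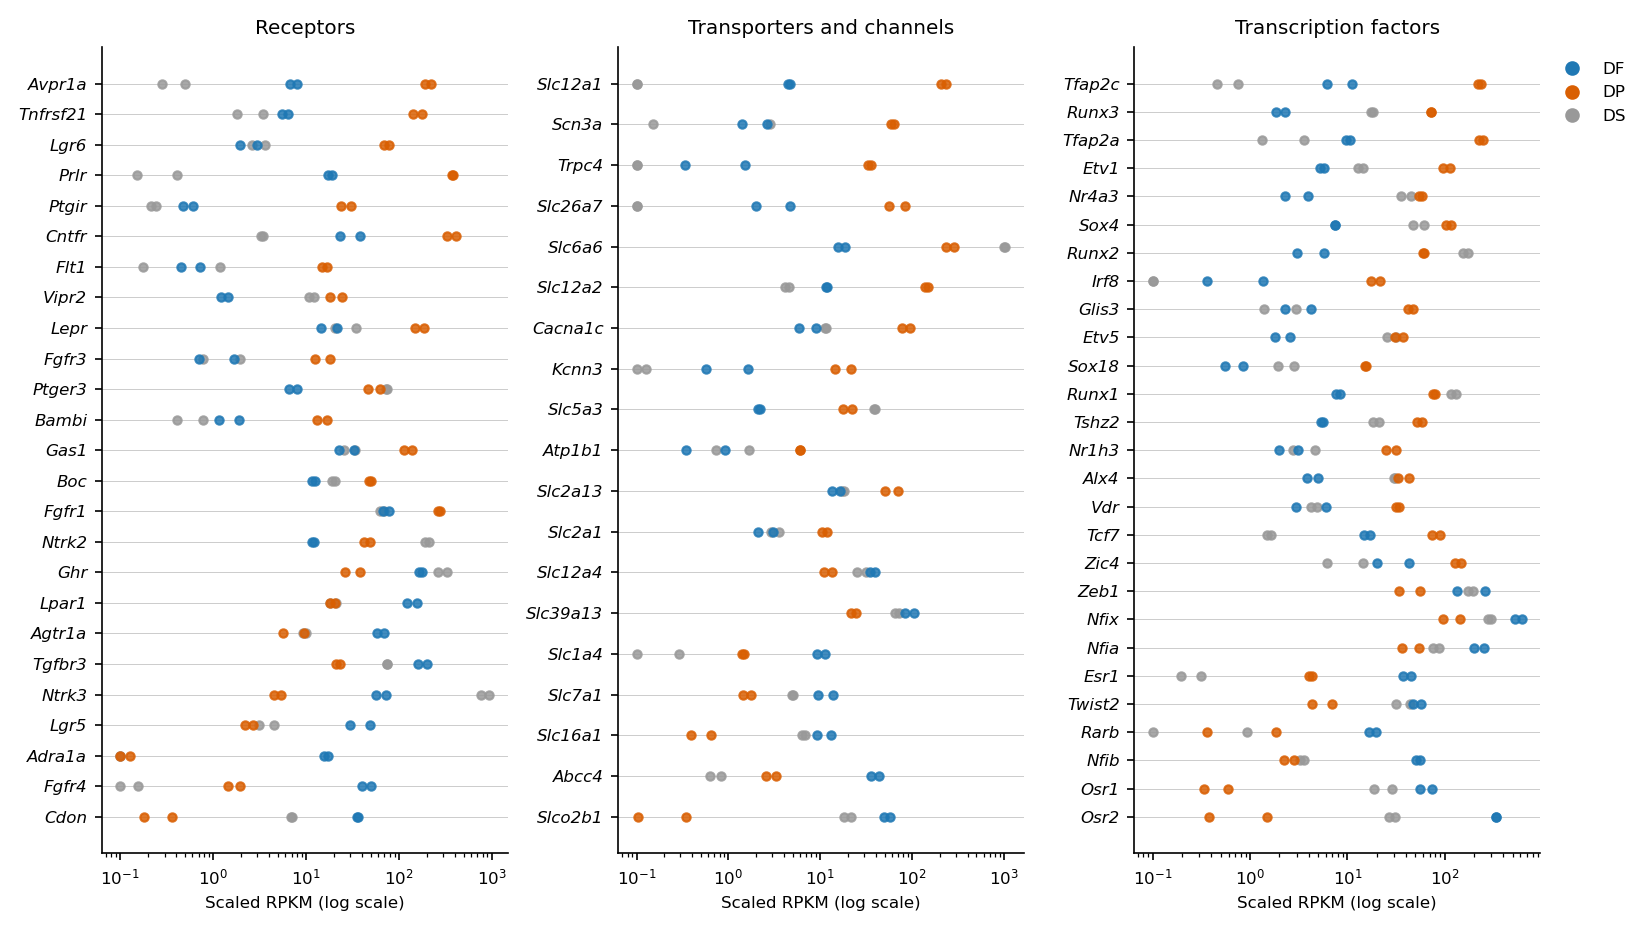
Scaled RPKM (x axis, log scale) of receptor genes (left), transporter and channel genes (middle) and transcription factor genes (right) in the 2 DF (blue), 2 DP (orange) and 2 DS (grey) libraries, 1 point per library, with values below 0.1 drawn at 0.1. In each panel genes run from the largest log2 difference towards DP at the top to the largest towards DF at the bottom. Only genes whose DP and DF libraries do not overlap were drawn. Several genes, Runx1, Runx2, Slc6a6, Ntrk2 and Ntrk3 among them, are highest in DS.

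Few genes of core energy metabolism were called. Of 28 glycolysis genes 3 were higher in DP and 1 lower (14 and 1 as deposited), of 22 citric acid cycle genes 0 and 2 (9 and 0 as deposited), and of 76 oxidative phosphorylation subunit genes 0 and 3 (6 and 1 as deposited). At an unadjusted limma p under 0.05, 3 citric acid cycle genes were higher and 4 lower, and 3 oxidative phosphorylation genes were higher and 34 lower, the latter list with a median log2 difference of -0.36. Ldhb, a lactate dehydrogenase chain that favours pyruvate formation, was DP-high at 28.6 and 22.4 scaled RPKM in DP and 0 and 1.29 in DF (log2 DP minus DF 4.12, with SE 0.46 and adjusted p = 0.0016). Gapdh was at 213 and 324 in DP and 389 and 335 in DF and not called (-0.46, adjusted p = 0.16). The Ldhb value of DF replicate 1 is listed as 0. Fatty acid oxidation genes had 0 of 25 higher and 4 lower (9 and 1 as deposited), and cholesterol genes higher for 0 of 27 and lower for 1 (14 and 0 as deposited). At an unadjusted limma p under 0.05, 4 and 9 genes of these lists were higher and 9 and 6 lower.

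Several enzymes of serine, one-carbon and proline synthesis were lower in DP. These pathways supply glycine and proline, the main residues of collagen. Phgdh, which opens the serine pathway, was at 0.363 and 0.6701 scaled RPKM in DP and 18.2 and 14.1 in DF (log2 DP minus DF -3.497, with SE 0.23 and adjusted p = 2.5e-04). The mitochondrial folate enzymes Aldh1l2 (3.695 and 2.64 in DP and 73.3 and 58.8 in DF, -4.01), Mthfd2 (0.479 and 2.76 in DP and 15.1 and 12.8 in DF, -2.66) and Shmt2 (-1.597) were lower too. Pycr1 and Aldh18a1, which make proline, were at 4.21 and 4.88 in DP and 53.3 and 34.6 in DF (-2.99) and at 11.1 and 3.86 in DP and 72.2 and 44.2 in DF (-2.91). Bcat1, a branched-chain aminotransferase, was at 0.332 and 0.0232 in DP and 43.1 and 33.8 in DF (-5.07, adjusted p = 9.8e-05). Of the 24 serine, one-carbon and pentose phosphate genes 1 was higher and 6 lower (6 and 3 as deposited), and of 31 amino acid and polyamine genes 2 and 7 (9 and 5 as deposited). Arg1, which hydrolyses arginine, was an exception at 78.7 and 59.1 in DP and 3.87 and 9.74 in DF (3.26).

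Most enzymes that modify collagen were lower in DP. Of 20 tested, 2 were higher and 14 lower (3 and 7 as deposited). P4ha2, a prolyl hydroxylase subunit, was at 25.7 and 14.7 scaled RPKM in DP and 342 and 269 in DF (log2 DP minus DF -3.898 and adjusted p = 3.6e-04). Serpinh1, the collagen chaperone, was at 75.01 and 95.7 in DP and 926 and 477 in DF (-2.96), and Loxl2, a crosslinking oxidase, at 8.29 and 8.48 in DP and 245 and 173 in DF (-4.46). Plod2, a lysyl hydroxylase that directs crosslinks, was the opposite at 124 and 114 in DP and 8.23 and 8.78 in DF (3.66, adjusted p = 1.4e-04), while Plod1 was lower (-1.61). Of 44 genes for glycosaminoglycan synthesis 7 were higher and 15 lower (14 and 7 as deposited). Sulf2, which removes sulphate from heparan chains, was at 4.78 and 7.14 in DP and 847 and 551 in DF (-6.64), and Has2, a hyaluronan synthase, at 0.104 and 0.0295 in DP and 13.2 and 13.4 in DF (-3.75). Chst15, which adds a further sulphate to chondroitin, was higher at 43.6 and 41.6 in DP and 0.871 and 1.85 in DF (4.24, adjusted p = 1.5e-04).

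Retinoid, prostanoid and lipid enzymes were called in both directions. Rbp4 and Aldh1a1, a retinol carrier and an enzyme that makes retinoic acid, were at 0 and 0.185 scaled RPKM in DP and 65.002 and 57.0003 in DF (log2 DP minus DF -5.83, with SE 0.1999 and adjusted p = 5.5e-05) and at 0.0254 and 0.201 in DP and 37.3 and 29.3 in DF (-4.94). Crabp2 was DP-high like its relative Crabp1 (1822 and 2123 in DP and 49.9 and 77.7 in DF), at 18.5 and 21.1 in DP and 1.98 and 2.78 in DF (2.63). The named intracellular retinoic acid binding protein genes were thus DP-high and the named retinol carrier and synthesis genes DF-high. Ptgs1, which encodes cyclooxygenase-1, was at 71.7 and 51.3 in DP and 2.83 and 3.49 in DF (3.895, adjusted p = 0.0038), Ptges, a prostaglandin E synthase, at 40.6 and 44.2 in DP and 10.2 and 10.98 in DF (1.903), and Hpgd, which degrades prostaglandins, at 19.3 and 16.5 in DP and 105 and 75.8 in DF (-2.26). Of the 33 genes of this list 6 were higher and 8 lower (11 and 7 as deposited). Fatty acid synthesis and storage genes had 8 of 30 higher and 2 lower (16 and 1 as deposited), with Fads3 (25.5 and 20.2 in DP and 1.48 and 2.202 in DF, 3.07), Elovl6 (29.8 and 22.9 in DP and 6.95 and 3.97 in DF, 2.11) and Scd1 (117 and 102 in DP and 42.3 and 24.2 in DF, 1.74), which lengthen or desaturate fatty acids, among them. Glutathione, redox and xenobiotic enzymes were higher for 9 of 63 and lower for 18 (15 and 13 as deposited). Gpx1, a glutathione peroxidase, was at 1345 and 1171 in DP and 306 and 321 in DF (1.997), while the aldehyde dehydrogenase gene Aldh3a1 was at 0.8599 and 0.256 in DP and 78.8 and 73.9 in DF (-5.66) and Gstm1 at 63.96 and 53.4 in DP and 494 and 428 in DF (-2.95). Purine and pyrimidine genes had 2 of 31 higher and 7 lower (10 and 5 as deposited), with Nt5e, the ectonucleotidase that makes adenosine, at 6.74 and 1.95 in DP and 79.8 and 45.1 in DF (-3.67).

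**Figure D5:**
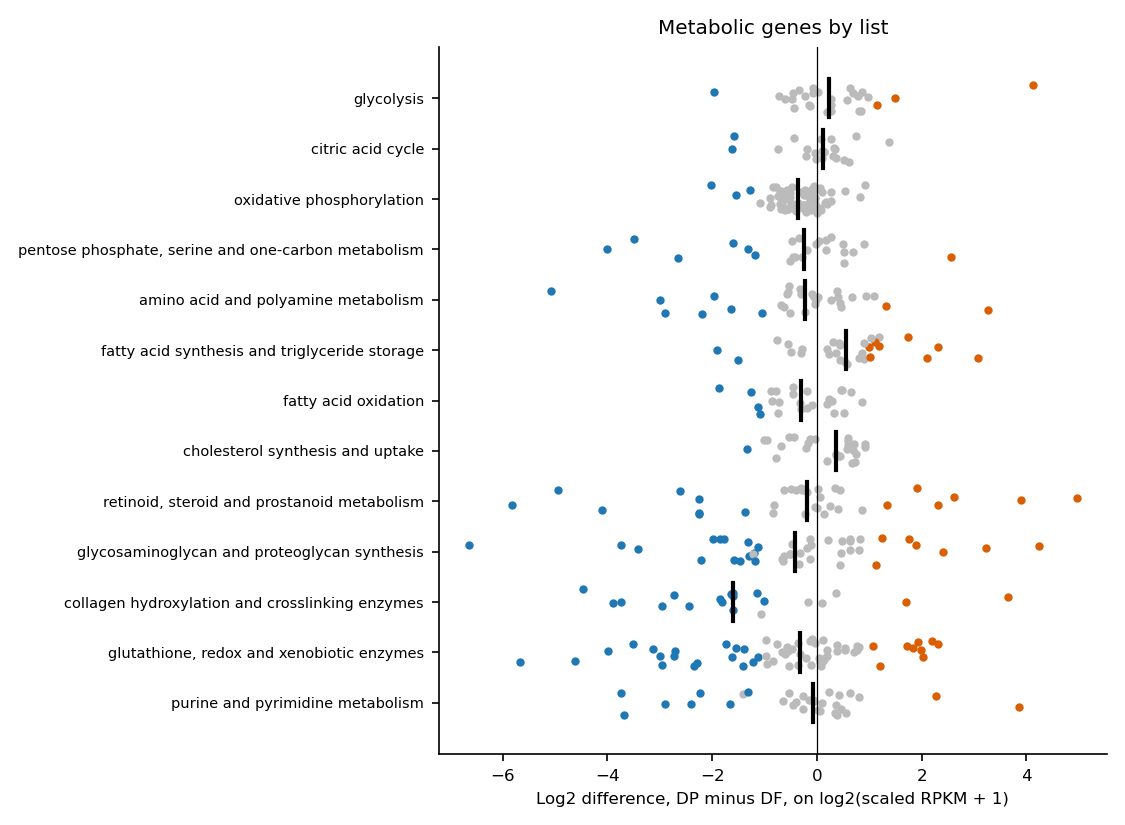
Log2 difference of DP minus DF (x axis) for each tested gene of the 13 metabolic lists, 1 point per gene, with called genes in orange (higher) and blue (lower) and a black tick at the list's median. Oxidative phosphorylation genes have a median of -0.36, and collagen-modifying enzymes have a median of -1.61.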

How the data were processed

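The deposited table gives RPKM per gene for 6 libraries (DF, DP and DS, 2 each), made by the authors from 6 ng of RNA amplified with the NuGEN Ovation system, per the labels' protocols. Per the submitters' processing notes, GRCm39, DESeq2 1.28.1 and Salmon 1.9.0 were used, in roles not given there. RPKM were divided by median-ratio factors and log2(value + 1) was fitted with limma 3.58.1 in R 4.3.3 (empirical Bayes with trend, all 6 libraries, 1 mean per population), with Benjamini-Hochberg adjustment over all tested genes. Called genes have adjusted p < 0.05 and a log2 difference of 1 or more in size. Log2 differences understate changes of low genes. On simulated data with 200 changed genes, 74.7% of changes of 2 and 93.7% of changes of 4 on the log2 scale were recovered. Of the calls made on those data for this comparison, 3.69% were false. How far these shares hold for the 3297 genes called in the real data was not tested. Named genes are the 15 called genes with the largest differences in each direction and up to 4 called members per list and direction. Both kinds have at least 5 scaled RPKM in the higher population. The 15 also leave out small RNA genes and genes whose DP and DF libraries overlap. Their lack of overlap was thus set by the rule. Each list's highest member and opposite pairs are named too. Bmp7, Inhbb, Nog, Kitl, Igf1, Igf2, Cxcr4, Boc, Lpar1, Ptger3, Slc1a4, Etv5, Vdr, Ptges, Hpgd and Gstm1 fall outside this rule and were chosen after their values were seen, as were marker genes shown beside results. A few genes that the rule takes are not reported here. Genes, lists and motifs were chosen with earlier results of these data known. Lists matched symbols, so a few members differ from the list's name. The promoter windows come from RefSeq on GRCm38.p6 and were used for letters only. Scaling, pseudocount, filter, fit and left-out libraries were varied.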

Additional observations from a re-analysis of the deposited data

How the results depend on the processing

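The choice of scaling moved the counts most. With RPKM as deposited, 4644 genes were higher in DP and 1012 lower, with 99 receptor, 117 transporter, 157 transcription factor and 136 metabolic genes higher and 32 transporter, 18 transcription factor and 51 metabolic genes lower. With libraries set to the same summed RPKM, 9227 genes were higher and 675 lower. The higher calls were then 131 secreted, 150 receptor, 215 transporter, 226 transcription factor and 277 metabolic genes, and the lower calls 87, 24, 19, 12 and 31 in the same order. The median log2 difference over all genes was 0.74 and 1.33 under these scalings and 0.18 with the 100 highest genes left out of the sum, against 0.02, and the share of calls that were higher was 82.1%, 93.2% and 51.2%. With no fold minimum 2271 genes were higher, 67 of them metabolic.

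Leaving out one library at a time gave 867 to 1427 higher and 1264 to 1916 lower genes. The ranges for higher calls were 48 to 73 secreted, 36 to 60 receptor, 32 to 58 transporter, 54 to 81 transcription factor and 31 to 40 metabolic genes, and for lower calls 94 to 142, 32 to 53, 43 to 75, 22 to 33 and 68 to 91. The lone library left in a population is then assumed to vary like the others, and fewer genes pass the filter.

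Of 214 genes named with a test, 10 lost their call as deposited and 17 with the same summed RPKM. When a DF or DP library was left out, some named genes failed the filter. They had no test in that fit and are not counted as lost below. Without DF replicate 1 or 2, 10 and 6 lost it, and without DP replicate 1 or 2, 6 and 6, some of them by falling under a log2 difference of 1. Kit lost its call without either DS library too, Kit and Epcam lost theirs in a fit of the 4 DP and DF libraries, Igf2 and Scd1 with a pseudocount of 0.1, Kit, Igf2 and Scd1 with no filter, and Vcan without the 100 highest genes in the sum. Genes that changed sign as deposited, and under the same summed RPKM, were Acta2 (0.54 and 1.06 on the log2 scale), Cd68 (0.12 and 0.74), Fos (0.79 and 1.5003), Gapdh (0.39 and 1.11), Slc25a3 (0.68 and 1.40), Thra (0.58 and 1.29) and Zeb2 (0.32 and 1.04). Fstl1 (0.16) and Vcan (0.54) changed sign with the same summed RPKM. Without the 100 highest genes in the sum, Acta2 (0.0473), Fos (0.13) and Slc25a3 (0.0258) changed sign. Leaving out one library at a time moved Fos between -0.22 and 0.0849, Slc25a3 between -0.35 and 0.0217, and Trp63 between -0.0498 and 0.57.

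With the replicate number as a block, 1370 genes were higher and 1887 lower, and of the named genes Scd1 lost its call (adjusted p = 0.061 by limma). The deviations of same-numbered libraries correlated at -0.0568 between DP and DF across genes, so the numbers were not taken to pair the libraries. Depth limits low values. At equal RPKM as deposited those of DP rest on the fewest reads of the DP and DF libraries, an order that need not hold after scaling.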

Other observations

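Genes for thyroid hormone handling were singled out after their values were seen and are given as values. Dio2, the deiodinase that makes active hormone, was at 42.99 and 45.1 scaled RPKM in DP and 1.16 and 1.701 in DF, a log2 difference of 4.22 (adjusted p = 1.0e-04 by limma). Dio3, the deiodinase that inactivates the hormone, was also higher in DP, at 10.2 and 16.3 in DP and 0.704 and 0.458 in DF (3.14, adjusted p = 5.7e-04). The carrier gene Slc16a10 was higher, at 69.9 and 44.4 in DP and 24.3 and 26.6 in DF (1.103, adjusted p = 0.02). The nuclear receptor genes Thra, at 70.3 and 73.4 in DP and 94.2 and 79.1 in DF (-0.26), and Thrb, at 48.3 and 55.4 in DP and 32.8 and 38.8 in DF (0.52), were not called. In DS, Dio2 was listed at 0 and 0.

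Within the 55 lists, 245 pairs of genes with the same symbol stem had 1 member called higher and 1 called lower, a gene counting in as many pairs as it forms.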
